A study of Mus musculus with 16 samples.

Results

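Hearts that carried a mutant circadian clock and had been exposed to a long high-fat diet were compared with hearts that had neither. The comparison used the 4 arrays titled Clock HFD and the 4 titled WT SC, which are 8 of the 16 arrays in the series, and it covered all 22180 genes that at least 1 probe set names alone. Clock HFD mice were Transgenic Clock delta 19/delta 19 and ate a High-Fat (HFD) diet, Clock SC mice had the same genotype on Standard Chow (SC), WT HFD mice were wild type on HFD, and WT SC mice were wild type on SC, with 4 mice in each group. All 4 groups were C57Bl/6J mice of 32 weeks that had spent 24 weeks on their diet, and the myocardium was taken 7 hours after lights on, at ZT07. RNA of each mouse, 500 ng in total, was hybridised to 1 Affymetrix array, so each array is 1 animal. The labels do not state the sex of the mice. Genotype and diet differ together between Clock HFD and WT SC, so within this contrast their parts cannot be told apart, and the Clock SC and WT HFD arrays are shown beside it. The labels give 1 time of day for all mice, so a shift in the timing of a rhythm and a change in its mean cannot be told apart either.

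Each value is a log2 value from which the authors had subtracted the probe set's median over the 16 arrays. A value of 0 is thus the middle of that gene's own range, a difference of 1 is a 2-fold difference, and levels of different genes cannot be set against each other. For the same reason the tissue could not be checked by the abundance of heart muscle markers. An error after ± is the standard error of the limma fit unless it is called SD, and a gene is called where its Benjamini-Hochberg adjusted p over all 22180 genes is under 0.05. In whole tissue, fewer cells of a type and less RNA per cell cannot be told apart. The lists of genes used below were chosen with earlier results of these data known. Their shares of called genes beside those of all genes are thus descriptions and no test.

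The circadian clock of mammals is a loop in which CLOCK and its partner BMAL1, encoded by Arntl, bind E-box sequences and switch on the Per, Cry, Nr1d1 and Nr1d2 genes, whose proteins feed back. PER and CRY restrain CLOCK and BMAL1, while the REV-ERB proteins encoded by Nr1d1 and Nr1d2 hold down Arntl and Nfil3. The delta 19 form of CLOCK still pairs with BMAL1 but activates transcription poorly, and it is present in every tissue of the mouse, not in the heart alone. Heart muscle draws most of its energy from fatty acids, and dietary fat raises the enzymes that burn them through PPAR receptors.

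Of the 22180 genes, 891 were called in Clock HFD against WT SC hearts, which is 4.02%. Of these, 564 were higher (2.54% of all genes) and 327 lower (1.47%), and the Clock HFD and WT SC arrays did not overlap for 836 of the 891. Among all genes, 10.9% did not overlap, 6.38% with Clock HFD higher and 4.54% with Clock HFD lower. Most differences were small: the median size was 0.32, and 14 called genes differed by more than 1. The median over all genes was -0.00.

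2 of the 4 WT SC arrays stood apart from the other pair. The array labelled WT SC replicate 2 had high interferon-inducible genes: the mean over 26 such genes was 0.94 there and lay between -0.23 and 0.21 on the other 15 arrays. Its macrophage markers were raised as well, with a mean over 14 markers of 0.37, against -0.19 to 0.14 elsewhere. The array labelled WT SC replicate 4 had E-box clock genes close to those of Clock hearts, with a mean of -0.02 over 14 such genes. WT SC replicates 1, 2 and 3 had 0.46, 0.56 and 0.82. Genes outside the core loop differed in where they placed replicate 4. Ano4 was 0.58 there and Jam2 was 0.26, inside the range of the other WT SC arrays for both. Ces1d and Coq10b, whose values are given below, were lower there than on the other WT SC arrays and higher than in the Clock HFD hearts. These genes were picked, and the genotype of replicate 4 was not tested. The labels give replicate 4 the same time of day as the rest, and whether it was taken at another time was not tested. On WT SC replicates 2 and 4 the means of several lists lay below those on replicates 1 and 3. In the order of replicates 1 to 4, the mean over beta-oxidation enzymes was -0.01, -0.11, -0.04 and -0.15. Over potassium channels it was 0.05, -0.09, 0.11 and -0.16, and over cardiomyocyte markers 0.04, -0.04, 0.02 and -0.11. Not every list did so: over proteasome genes it was -0.01, 0.06, -0.02 and -0.10. The part of this shift in the rises below was not tested. Without replicate 2 the number of called genes was 573, without replicate 4 it was 532, and without both it was 222 (1.0%). For comparison, it was 931 without WT SC replicate 1 and 869 without WT SC replicate 3. Without Clock HFD replicates 1, 2, 3 and 4 in turn it was 636, 564, 616 and 564. The loss was larger among genes that were higher: 92 were higher (0.415%) and 130 lower (0.586%) without both arrays, so that the share of calls that were higher was 41.4%, against 63.3% with all arrays. Of the 891 calls, 197 were among those 222, and all 891 kept their sign. Of the 122 named genes called, 78 passed whichever of the 8 arrays was left out, and 59 passed without both of these. No array was left out of the values below. Leaving out both arrays together was chosen after seeing the data, and calls lost in that way are given beside the groups of genes. It leaves 2 WT SC arrays, so a call can be lost through the smaller group alone, and that part was not tested. No other pair of arrays was left out.

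**Figure D1:**
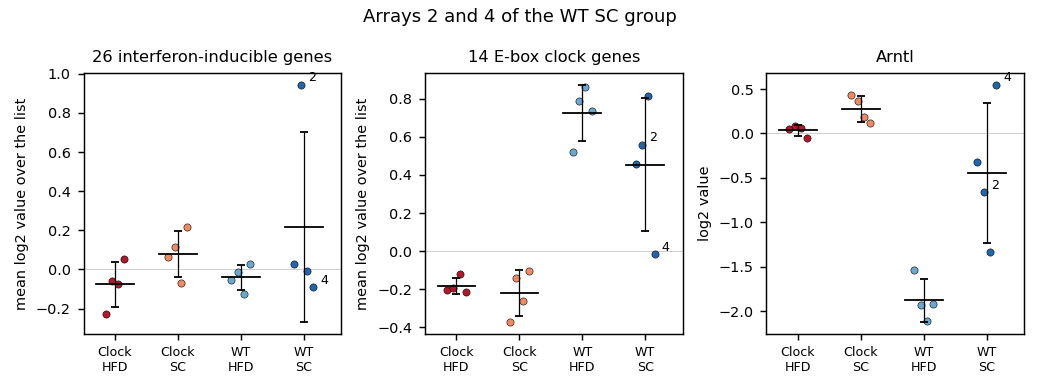
Mean log2 value over 26 interferon-inducible genes, over 14 E-box clock genes, and of Arntl, on each array of the 4 groups, with group mean and SD. The interferon mean of WT SC replicate 2 was 0.94. WT SC replicate 4 had an E-box mean of -0.02, close to the Clock arrays, but an Arntl value of 0.54, above all Clock HFD arrays.

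Clock target genes were lower in the hearts with both challenges. 7 of 14 measured E-box clock genes fell and none rose, against 1.47% lower among all genes, and their median difference was -0.53, against -0.00 for all genes. Dbp, a transcription factor that relays the clock to its outputs, was -0.52, -0.40, -0.37 and -0.52 in Clock HFD hearts, against 1.71, 1.89, 2.29 and 0.37 in WT SC hearts. Every Clock HFD heart lay below every WT SC heart, and the lowest WT SC value was that of replicate 4. The difference was -2.01 ± 0.27, a 4.04-fold fall (adjusted p = 0.000821). Nr1d1, which encodes REV-ERB alpha, was -0.39, -0.67, -0.61 and -0.49 in Clock HFD hearts, against 0.72, 0.59, 1.01 and 0.30 in WT SC hearts, a difference of -1.20 ± 0.11 (adjusted p = 1.79e-05). Its relative Nr1d2 fell by 0.90 ± 0.16 (adjusted p = 0.00393). Again the groups did not overlap, although replicate 4 lay nearest to the Clock HFD hearts for both REV-ERB genes. Ciart, a repressor of CLOCK and BMAL1, was -0.36, -0.22, -0.20 and -0.45 in Clock HFD hearts, against 0.94, 1.19, 1.53 and -0.17 in WT SC hearts. Here replicate 4 came close to the highest Clock HFD heart, and the difference was -1.18 ± 0.25 (adjusted p = 0.014). Per3, a member of the Period family, overlapped, since its value in WT SC replicate 4, -0.01, lay below the highest Clock HFD value of 0.01, with a difference of -0.70 ± 0.15 (adjusted p = 0.0144). Usp2, a deubiquitinase that acts on clock proteins, fell by 0.58 ± 0.12. Bhlhe40, also a repressor of CLOCK and BMAL1, fell by 0.70 ± 0.19, barely past the threshold with an adjusted p of 0.0499.

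The remaining E-box genes did not pass: Per1 differed by -0.48 ± 0.27, Bhlhe41 by -0.43 ± 0.15, Cry2 by -0.38 ± 0.12, Wee1 by -0.26 ± 0.15, Hlf by -0.22 ± 0.11, Tef by -0.07 ± 0.07 and Cry1 by 0.18 ± 0.08. Tef is read by 2 probe sets, which differed in sign (-0.31 and 0.17). Without WT SC replicate 4, 9 of the 14 passed as lower, with Bhlhe41 (adjusted p = 0.024) and Cry2 (adjusted p = 0.0268) among them, without replicate 2 the count was 6, and without both it was 7, with Cry2 in place of Bhlhe40.

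None of the 6 measured genes that REV-ERB proteins repress passed. Arntl was 0.05, 0.09, 0.06 and -0.05 in Clock HFD hearts, against -0.32, -0.66, -1.34 and 0.54 in WT SC hearts. WT SC replicate 4 lay above all Clock HFD hearts and the other 3 WT SC hearts below them, so the groups overlapped. The difference was 0.48 ± 0.26 (adjusted p = 0.364) with all arrays, and the adjusted p was 0.0254 without replicate 4 and 0.0654 without both. Nfil3, a repressor of D-box genes, differed by 0.43 ± 0.13 without passing (adjusted p = 0.0831). Clock itself differed by 0.10 ± 0.08 (adjusted p = 0.58). The mutation alters the protein, and the labels do not say where the array's probes lie relative to it, so the Clock signal does not check the genotype.

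**Figure D2:**
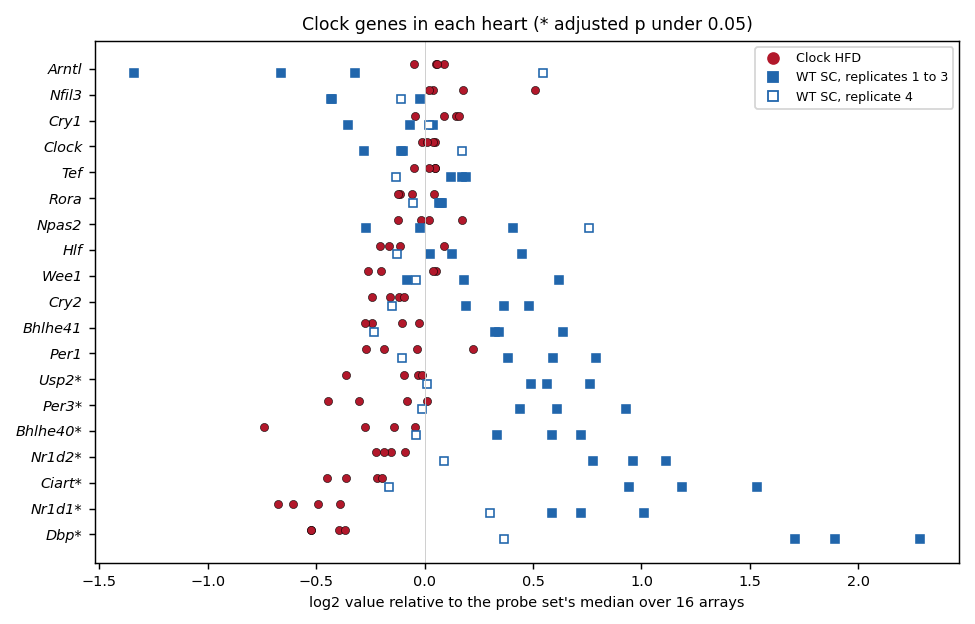
Log2 values of clock genes, 1 row per gene, in the 4 Clock HFD hearts (red circles) and the 4 WT SC hearts (blue squares, open for replicate 4), with genes called marked by a star. Dbp, Nr1d1 and Ciart have the largest mean differences, with WT SC replicate 4 of Ciart close to the Clock HFD hearts and Dbp at -0.52 to -0.37 in Clock HFD hearts and 0.37 to 2.29 in WT SC hearts.

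The promoters of 3 called genes are shown to let the clock elements be seen in their sequence context. Each window runs from 250 bases before to 50 bases after the gene's start in RefSeq (GRCm38.p6), on the gene's own strand, with capitals marking matches to the E-box CACGTG or the D-box TTATGTAA on either strand. Ciart (chr3:95882179-95882478, minus strand) holds 3 E-boxes, whose first bases lie 116, 58 and 44 bases before the start. Coq10b (chr1:55052520-55052819, plus strand), a mitochondrial coenzyme Q protein gene, holds an E-box 78 bases and a D-box 162 bases before the start. Per3 (chr4:151044616-151044915, minus strand) holds 2 D-boxes, 205 and 158 bases before the start.
Ciart: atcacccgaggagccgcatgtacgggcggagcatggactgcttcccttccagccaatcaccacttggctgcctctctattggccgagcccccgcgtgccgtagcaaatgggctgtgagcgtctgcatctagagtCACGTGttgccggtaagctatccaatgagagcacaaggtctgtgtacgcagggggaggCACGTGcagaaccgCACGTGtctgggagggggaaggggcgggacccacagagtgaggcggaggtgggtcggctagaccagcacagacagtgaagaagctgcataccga
Coq10b: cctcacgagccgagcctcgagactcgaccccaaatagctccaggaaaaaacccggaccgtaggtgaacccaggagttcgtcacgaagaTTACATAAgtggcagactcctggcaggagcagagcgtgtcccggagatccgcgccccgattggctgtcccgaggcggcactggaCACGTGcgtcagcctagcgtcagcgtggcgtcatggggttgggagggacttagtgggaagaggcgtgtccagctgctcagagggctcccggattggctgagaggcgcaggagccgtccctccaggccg
Per3: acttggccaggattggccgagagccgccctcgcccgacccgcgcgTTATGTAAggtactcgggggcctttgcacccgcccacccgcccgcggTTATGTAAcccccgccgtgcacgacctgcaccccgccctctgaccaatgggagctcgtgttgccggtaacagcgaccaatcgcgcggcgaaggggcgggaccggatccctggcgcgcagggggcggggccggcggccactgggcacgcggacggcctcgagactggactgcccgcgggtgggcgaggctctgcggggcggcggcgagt
Such matches are descriptions of letters and not sites of binding. The E-box was found in 7.15% of all 32851 promoter windows and the D-box in 0.938%. By gene, the E-box was present for 8.09% of all 27025 genes in the table, for 27 of 253 genes called lower (10.7%) and for 43 of 443 called higher (9.71%). Among 12 E-box clock genes with a window, 5 had the motif within it (Bhlhe41, Ciart, Cry1, Per1 and Tef), of which only Ciart was called.

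Clock-controlled genes outside the core loop went in both directions: of 20 measured, 2 rose and 2 fell. Among all genes, 2.54% were higher and 1.47% lower. Coq10b was -0.29, -0.31, -0.15 and -0.42 in Clock HFD hearts, against 0.46, 0.73, 0.71 and 0.02 in WT SC hearts, so that WT SC replicate 4 was again the lowest wild-type heart, with a difference of -0.77 ± 0.13 (adjusted p = 0.00335). Bdh1, the first enzyme of ketone body oxidation in mitochondria, was -0.44, -0.08, -0.30 and -0.44 in Clock HFD hearts, against 0.62, 0.49, 0.40 and 0.53 in WT SC hearts. Its groups were well apart, with a difference of -0.83 ± 0.12 (adjusted p = 0.00141), and it was the only one called of 6 measured genes of ketone body use. The 2 that rose, Kcnd2 and Pdk4, are described with the ion channels and the fuel genes.

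The genes that fell most outside the clock loop included an esterase, a prostaglandin synthase and a complement component. Ces1d, a carboxylesterase that hydrolyses lipid esters, was -0.65, -0.56, -0.38 and -0.56 in Clock HFD hearts, against 1.37, 1.43, 1.63 and 0.36 in WT SC hearts. Replicate 4 lay between the other wild-type hearts and the Clock HFD hearts, and the difference was -1.73 ± 0.19 (adjusted p = 9.37e-05). Ptgds, which makes prostaglandin D2, was -0.72, -0.33, -0.65 and -0.45 in Clock HFD hearts, against 1.13, 1.39, 0.79 and 0.65 in WT SC hearts, a difference of -1.53 ± 0.22 (adjusted p = 0.00141). C7, a component of the complement membrane attack complex, was -0.86, -0.96, -0.66 and -0.64 in Clock HFD hearts, against 0.82, 1.08, 0.17 and 0.41 in WT SC hearts, a difference of -1.40 ± 0.18 (adjusted p = 0.000454). Neither gene overlapped between the groups.

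Prxl2a, a peroxiredoxin-like protein gene, fell by 1.20 ± 0.07, a 2.29-fold fall with an adjusted p of 7.35e-08. Ano4, a member of the anoctamin family of membrane proteins, was -0.48, -0.59, -0.53 and -0.73 in Clock HFD hearts, against 0.48, 0.55, 0.75 and 0.58 in WT SC hearts. Its 4 WT SC values lay close together, replicate 4 included, and the difference was -1.17 ± 0.06 (adjusted p = 5.42e-08). Mylk4, a kinase of the myosin light chain kinase family, fell by 1.05 ± 0.11, and Epha4, an ephrin receptor, fell by 0.88 ± 0.10. Jam2, a junctional adhesion molecule of endothelium, fell by 0.83 ± 0.05. Scgb1c1, a secretoglobin, completed the 12 largest non-overlapping falls with -0.99 ± 0.19 (adjusted p = 0.00693). Predicted genes were left out of these falls and of the rises below: among them Gm19522 fell by 1.76, and Gm10336 and Gm3893 rose by 0.86 and 0.81.

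The largest rises among the other genes were in genes of transport, one-carbon metabolism and stress response. Slc17a7, which encodes a vesicular glutamate transporter known from neurons, was 0.66, 1.00, 0.73 and 0.75 in Clock HFD hearts, against -0.48, -0.30, -0.56 and -0.83 in WT SC hearts. No heart lay between the groups, and the difference was 1.33 ± 0.11, a 2.51-fold rise (adjusted p = 1.00e-05). Mthfd2, a mitochondrial enzyme of the folate one-carbon cycle, was 0.87, 0.84, 0.98 and 0.88 in Clock HFD hearts, against -0.26, -0.25, -0.37 and -0.22 in WT SC hearts, a difference of 1.16 ± 0.10 (adjusted p = 7.91e-06). Ddit4, a stress-induced inhibitor of mTOR signalling also known as REDD1, was 0.88, 0.77, 0.47 and 0.67 in Clock HFD hearts, against -0.27, -0.76, -0.54 and -0.28 in WT SC hearts, a difference of 1.16 ± 0.12 (adjusted p = 4.50e-05). The spread within either group was small beside the gap for Mthfd2, and wider for Ddit4.

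Zbtb16, a zinc finger factor induced by glucocorticoids in many tissues, was 0.60, 1.01, 0.82 and 0.70 in Clock HFD hearts, against -0.17, -0.12, -0.04 and -0.56 in WT SC hearts. The groups did not overlap and the difference was 1.00 ± 0.22 (adjusted p = 0.0145), but the adjusted p was 0.0521 without WT SC replicate 4 and 0.154 without both. Of 18 glucocorticoid-induced genes, 2 rose (Zbtb16 and Ddit4), 1 fell (Lcn2) and 15 did not pass, with a median of 0.04. The shares among all genes were 2.54% higher and 1.47% lower. Egf, the epidermal growth factor gene, was 0.44, 0.64, 0.61 and 0.37 in Clock HFD hearts, against -0.36, -0.32, -0.28 and -0.32 in WT SC hearts, a difference of 0.83 ± 0.09 (adjusted p = 0.000111). Plac9a rose by 0.92 ± 0.08 and Lrtm1 by 0.76 ± 0.06, and both passed without both WT SC arrays (adjusted p = 0.000599 and 4.75e-05). Ankrd23, an ankyrin repeat protein of the sarcomere, rose by 0.79 ± 0.13 and did not pass without both arrays (adjusted p = 0.0564). The small nucleolar RNA Snord71 rose by 0.87 ± 0.22 and the 5S ribosomal RNA gene n-R5s136 by 0.80 ± 0.17, and neither passed without both arrays (adjusted p = 0.0812 and 0.105).

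**Figure D3:**
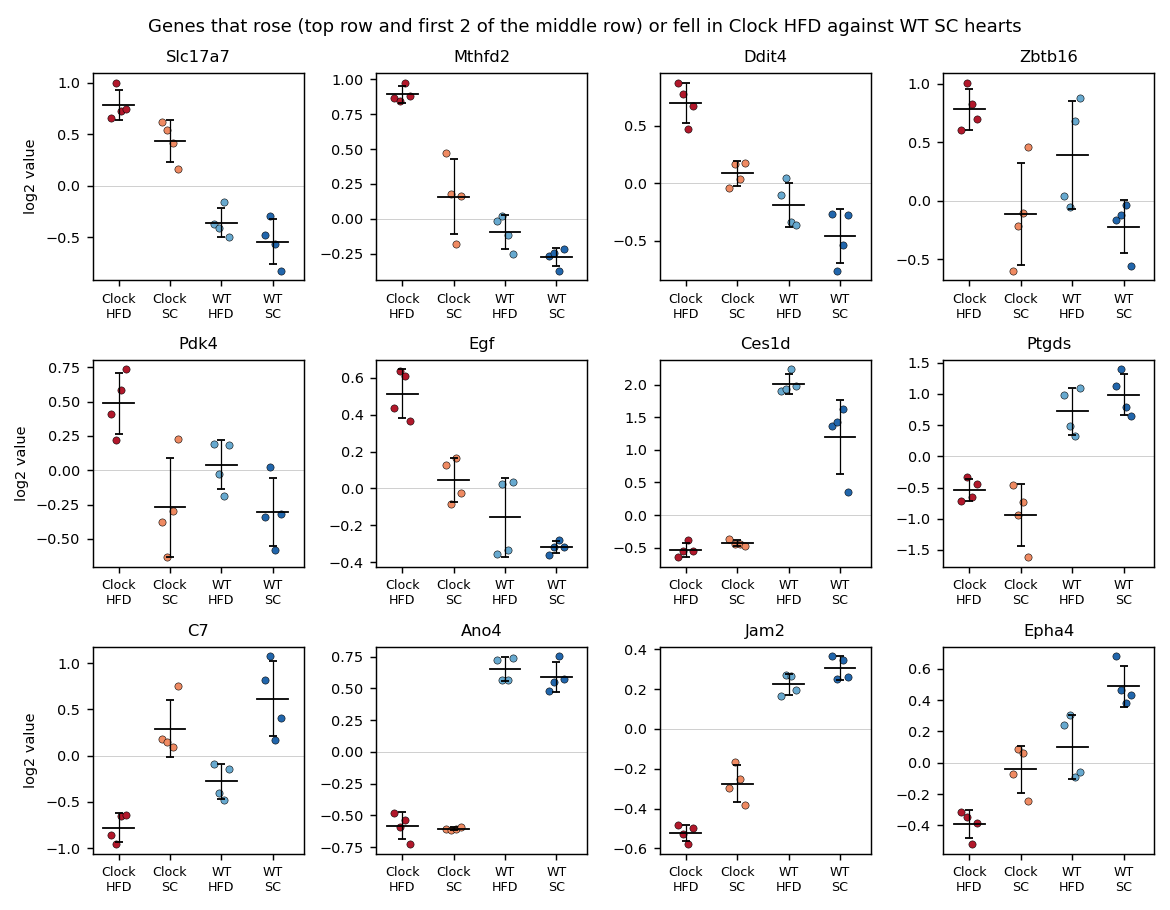
Log2 values of 12 named genes on each array (points) with group mean and SD, for Clock HFD, Clock SC, WT HFD and WT SC hearts. Mthfd2 was 0.84 to 0.98 in Clock HFD hearts and 0.47 or lower in the 12 other hearts, while Ano4 was -0.73 to -0.48 in Clock HFD hearts and 0.48 to 0.75 in WT SC hearts.

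Mthfd2 and Ddit4 belong to a set that joins genes of ATF4, a transcription factor of amino acid stress, with genes of endoplasmic reticulum stress. It holds Atf4 itself and chaperones of the endoplasmic reticulum as well, so its counts are not those of ATF4 targets alone. Of 28 measured genes of that set, 7 rose and none fell, against 2.54% higher among all genes, although the median over the 28 was 0.04. The others that rose were Atf5 by 0.37 ± 0.08, Aldh18a1 by 0.36 ± 0.08, Asns by 0.31, Ddit3 by 0.31 and Vldlr by 0.25 ± 0.06. Asns makes asparagine, Aldh18a1 starts proline synthesis, Ddit3 encodes the stress factor CHOP, and Vldlr is a lipoprotein receptor. Nars, the asparagine-tRNA synthetase gene, which was not on the list, rose by 0.38 ± 0.06 (adjusted p = 0.0021). Other members stayed near 0: Hspa5, the main chaperone of the endoplasmic reticulum, differed by 0.06 (adjusted p = 0.706), Trib3 by 0.06 (adjusted p = 0.737) and Fgf21 by -0.00 (adjusted p = 0.995). Of the 7, the 2 that passed without both WT SC arrays were Mthfd2 (adjusted p = 0.000268) and Ddit4 (adjusted p = 0.000602), and the count was 5 without replicate 2 and 3 without replicate 4.

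The promoter of Asns is shown as it holds, among the called members of this set, a match to the core of the amino acid response element, TGATGNAA, which is marked in capitals. The window (chr6:7693160-7693459, minus strand, RefSeq GRCm38.p6) again runs from 250 bases before to 50 after the start, and the match begins 23 bases before it.
Asns: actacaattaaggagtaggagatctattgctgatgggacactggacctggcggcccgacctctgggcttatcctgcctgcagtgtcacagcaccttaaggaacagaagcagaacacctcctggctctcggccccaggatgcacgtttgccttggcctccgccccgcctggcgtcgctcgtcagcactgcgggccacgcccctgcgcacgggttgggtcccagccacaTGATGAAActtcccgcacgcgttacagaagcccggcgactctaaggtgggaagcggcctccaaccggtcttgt
The same letters on either strand were found in 3.97% of all promoter windows. By gene they were present for 4.51% of all genes in the table, for 10 of 443 called higher (2.26%) and for 16 of 253 called lower (6.32%). They were present for 8 of 29 genes of the set with a window, among them Asns and Vldlr of the 7 that rose.

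Of 19 measured beta-oxidation enzymes, which burn fatty acids, 7 rose, none fell and 12 did not pass, against 2.54% higher among all genes. Of the 19, 16 had a positive difference and the median was 0.16. Acads, the short-chain acyl-CoA dehydrogenase, was 0.12, 0.22, 0.13 and 0.32 in Clock HFD hearts, against -0.10, -0.25, -0.12 and -0.49 in WT SC hearts, a difference of 0.44 ± 0.07 (adjusted p = 0.00304). Acadvl, which opens the breakdown of very long chains, was 0.06, 0.13, 0.10 and 0.16 in Clock HFD hearts, against -0.06, -0.26, -0.19 and -0.33 in WT SC hearts, a difference of 0.33 ± 0.06 (adjusted p = 0.00391). For both, all Clock HFD values were above 0 and all WT SC values below it. Acaa2, the last enzyme of the spiral, rose by 0.26 ± 0.05, and Etfdh, which passes the electrons on to ubiquinone, by 0.20 ± 0.04. Etfa, Hadha and Hadh also rose, by 0.20, 0.18 and 0.16, while Acadl differed by -0.03 (adjusted p = 0.79) and Acadm by 0.14 (adjusted p = 0.105). Acads alone of the 19 passed without both WT SC arrays (adjusted p = 0.0279), and the median was then 0.11. The count was 4 without replicate 2 and 5 without replicate 4.

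Some genes of fat supply and storage rose as well. Cpt2, the inner membrane step of carnitine transport, rose by 0.29 ± 0.05 and was the 1 called of 5 carnitine shuttle genes. Of 12 peroxisomal lipid enzymes, 3 rose and none fell: Ephx2, the soluble epoxide hydrolase, by 0.44 ± 0.06, Pex11a, a peroxisome division factor, by 0.31 ± 0.07, and Hsd17b4, the peroxisomal bifunctional enzyme, by 0.27 ± 0.06. Of 22 PPAR targets, 4 rose and none fell, and of 19 lipid droplet and lipolysis genes, 4 rose and none fell. Among all genes, 2.54% were higher and 1.47% lower. Mgll, which releases glycerol from monoglycerides, was 0.16, 0.39, 0.20 and 0.53 in Clock HFD hearts, against -0.13, -0.49, -0.06 and -0.34 in WT SC hearts, a difference of 0.58 ± 0.10 (adjusted p = 0.00306). Plin5 and Cidea, both lipid droplet coat proteins, rose by 0.38 each, with standard errors of 0.09, and Abhd5, the activator of the lipase ATGL, by 0.26 ± 0.06. Of these groups, Ephx2 and Pdk4 passed without both WT SC arrays, and neither Cpt2 (adjusted p = 0.0855) nor any of the 19 lipid droplet genes did. Without replicate 4 alone, 1 of the 22 PPAR targets and 2 of the 19 lipid droplet genes passed.

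Genes that steer fuel between fat and glucose changed in both directions. Pdk4, the kinase that shuts pyruvate dehydrogenase, was 0.41, 0.22, 0.59 and 0.73 in Clock HFD hearts, against -0.34, 0.02, -0.58 and -0.32 in WT SC hearts. The difference was 0.79 ± 0.16 without overlap (adjusted p = 0.0114), while Pdp1, the phosphatase that reopens the enzyme, fell by 0.36 ± 0.08 (adjusted p = 0.0224). Of 27 genes of glucose use, 3 rose and 2 fell, against 2.54% higher and 1.47% lower among all genes. Pfkp and Pfkl, subunits of phosphofructokinase, rose by 0.45 ± 0.10 and 0.42 ± 0.08, and Eno3, the muscle enolase, fell by 0.22. Me1, the malic enzyme that supplies NADPH, rose by 0.42 ± 0.06 (adjusted p = 0.000748), whereas Mlxipl, the glucose sensor ChREBP, fell by 0.38 ± 0.09 and Fads1, a fatty acid desaturase, by 0.32 ± 0.09. Of 19 cholesterol synthesis genes, 3 fell and none rose: Hsd17b7 by 0.83 ± 0.12, Fdft1, the squalene synthase, by 0.37 ± 0.08, and Pmvk by 0.35 ± 0.06, and all 3 passed also without both WT SC arrays. The median of that group was -0.01. Pdk4 and Pdp1 were the 2 glucose genes that passed without both arrays, and Pfkp, Pfkl and Eno3 did not. Me1 passed there too (adjusted p = 0.00265), while Mlxipl (adjusted p = 0.0536) and Fads1 (adjusted p = 0.0762) did not.

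Of 52 respiratory chain and ATP synthase genes, 4 rose, 1 fell and 47 did not pass, against 2.54% higher and 1.47% lower among all genes, with a median of 0.09: Uqcrq rose by 0.26 ± 0.06, Cox7a1 by 0.25 ± 0.05, Cyc1 by 0.23 ± 0.06 and Ndufs1 by 0.19, while Cox6a2, the muscle form of a cytochrome oxidase subunit, fell by 0.30 ± 0.06. Of 37 proteasome genes, 7 rose, 1 fell and 29 did not pass, the rises led by the core subunit Psmb1 (0.35 ± 0.06, adjusted p = 0.0042), the regulatory subunit Psmd1 (0.31 ± 0.06) and the ATPase Psmc5 (0.30 ± 0.06). Psme1, an interferon-inducible activator subunit, fell by 0.52 ± 0.10 (adjusted p = 0.00752). Its 4 Clock HFD values ran from -0.30 to -0.09 and its WT SC values were 0.16, 0.75, 0.20 and 0.23, and its adjusted p without WT SC replicate 2, the array with high interferon genes, was 0.00392. Without both WT SC arrays, Psme1 and Psma3 (adjusted p = 0.0229 and 0.0417), a subunit that was none of the 7, were the only proteasome genes that passed, and 0 of the 52 respiratory chain genes did. Without replicate 4 alone, 3 proteasome genes and 1 respiratory chain gene passed as higher.

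Of 31 matrix and matrix remodelling genes other than collagens, 11 rose, none fell and 20 did not pass, against 2.54% higher among all genes, with a median of 0.18. Mmp2, a gelatinase made by fibroblasts, was 0.14, 0.15, 0.39 and 0.35 in Clock HFD hearts, against -0.33, -0.46, -0.30 and -0.67 in WT SC hearts, a difference of 0.70 ± 0.10 (adjusted p = 0.000929). Postn, the periostin that activated fibroblasts secrete, was 0.07, 0.42, 0.38 and 0.44 in Clock HFD hearts, against -0.39, -0.23, -0.29 and -0.26 in WT SC hearts, a difference of 0.62 ± 0.10 (adjusted p = 0.0021). Neither overlapped, although 1 Clock HFD heart, replicate 1, was low for Postn. Lum, a collagen-binding proteoglycan, rose by 0.52 ± 0.09, Mmp9 by 0.50 ± 0.10, and Fn1, the fibronectin gene, by 0.45. Mmp3, Serpinh1, Sparc, Lama2, Nid1 and Timp2 made up the rest of the 11, at 0.26 to 0.47.

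Of 21 collagen chains on the list, 3 rose and 18 did not pass, against 2.54% higher among all genes. The 3 were basement membrane chains: Col4a1 by 0.53 ± 0.10 (adjusted p = 0.00858), Col4a2 by 0.39 ± 0.10 and Col4a5 by 0.30 ± 0.08. Col28a1, which was not on the list and was named after its values were seen, rose by 0.31 ± 0.07 (adjusted p = 0.0233). The fibrillar chains Col1a1 and Col3a1 differed by 0.35 and 0.37 without passing (adjusted p = 0.0637 and 0.0758). Of 14 fibroblast markers, 4 rose (Postn, Lum, Gsn and Mfap5) and none fell, with a median of 0.28, and the fibroblast markers' mean was -0.08 to 0.20 on the Clock HFD arrays, against -0.22 to -0.07 on the WT SC arrays. The ranges overlap at 1 array of each group. The fibroblast-specific markers Pdgfra (0.26, adjusted p = 0.312) and Tcf21 (0.17, adjusted p = 0.631) did not pass, and the part of fibroblast number in the matrix result was not tested. Without both WT SC arrays, 4 of the 31 matrix genes passed (Mmp2, Postn, Lum and Mmp9) and none of the collagens. The count of the 31 was 7 without replicate 2 and 8 without replicate 4, and 1 collagen passed in each of these. Of 28 genes of TGF-beta and BMP signalling, 1 rose, 1 fell and 26 did not pass, against 2.54% higher and 1.47% lower among all genes. Tgfb3 rose by 0.32 ± 0.06. Tgfb1 was -0.13, -0.19, -0.29 and -0.25 in Clock HFD hearts, against 0.16, 0.18, 0.13 and 0.17 in WT SC hearts, a difference of -0.38 ± 0.05 (adjusted p = 0.000498). Without both WT SC arrays, Tgfb1 passed (adjusted p = 0.0133) and Tgfb3 did not (adjusted p = 0.095).

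Ion channel genes changed in both directions. Of 17 potassium channel genes, 2 rose, 1 fell and 14 did not pass, against 2.54% higher and 1.47% lower among all genes. Of 11 sodium, pacemaker and gap junction channel genes, 2 rose, 2 fell and 7 did not pass. Kcnd2, which encodes the Kv4.2 subunit of the transient outward potassium current, was 0.50, 0.37, 0.34 and 0.30 in Clock HFD hearts, against -0.58, -0.11, -0.12 and -0.59 in WT SC hearts, a difference of 0.73 ± 0.10 (adjusted p = 0.000992). Kcnv2, a modifier subunit of potassium channels, was 0.35, 0.19, 0.59 and 0.41 in Clock HFD hearts, against -0.33, -0.54, -0.18 and -0.41 in WT SC hearts, a difference of 0.75 ± 0.11 (adjusted p = 0.00108). Both were above 0 in every Clock HFD heart and below 0 in every WT SC heart. Abcc9, the SUR2 subunit of the ATP-sensitive potassium channel, fell by 0.46 ± 0.06. Hcn2, a pacemaker channel, and Scn4b, a sodium channel beta subunit, rose by 0.47 ± 0.11 and 0.36 ± 0.08. Gja1, the connexin 43 of ventricular gap junctions, was -0.29, -0.22, -0.15 and -0.32 in Clock HFD hearts, against 0.37, 0.17, 0.20 and 0.33 in WT SC hearts, a difference of -0.51 ± 0.07 (adjusted p = 0.000647). The T-type calcium channel gene Cacna1h fell by 0.42 ± 0.10. Abcc9 and Gja1 passed without both WT SC arrays (adjusted p = 0.00734 and 0.00817), as did Kcnd2 (adjusted p = 0.00627) and Kcnv2 (adjusted p = 0.0298), while Hcn2, Scn4b and Cacna1h did not.

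Of 19 calcium handling genes, 3 rose and none fell, against 2.54% higher and 1.47% lower among all genes. Ryr2, the calcium release channel of the sarcoplasmic reticulum, rose by 0.32 ± 0.05 (adjusted p = 0.00141), Cacna2d1 by 0.25 ± 0.06 and the calcium pump Atp2b1 by 0.22 ± 0.05. Among contractile genes, Myom2, an M-band protein, fell by 0.83 ± 0.17 (adjusted p = 0.0127) and its relative Myom1 rose by 0.24 ± 0.06. Myh7, the slow myosin heavy chain that rises in stressed mouse hearts, was -0.60, -0.61, 0.11 and -0.31 in Clock HFD hearts, against 0.50, 0.10, 0.47 and 0.54 in WT SC hearts. It overlapped at 1 array of each group and fell by 0.76 ± 0.20 (adjusted p = 0.0433), with an adjusted p of 0.145 without both WT SC arrays. Nppa, the atrial natriuretic peptide gene, differed by -1.11 ± 0.33 without passing (adjusted p = 0.0728). The stretch-responsive genes Uck2 and Flnc rose by 0.34 ± 0.06 and 0.28 ± 0.07. Of 21 fetal and stretch-responsive cardiac genes, 3 rose, 1 fell and 17 did not pass, with a median of 0.02. Without both WT SC arrays, Ryr2 (adjusted p = 0.0371), Myom2 (adjusted p = 0.0434) and Uck2 (adjusted p = 0.0487) passed, while Cacna2d1, Atp2b1, Myom1 and Flnc did not (adjusted p = 0.133 to 0.376).

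Signalling genes that fell included Akt1 by 0.40 ± 0.09, Agtr1a, the angiotensin receptor, by 0.44 ± 0.08, and Rgs2, a brake on its signal, by 0.29 ± 0.07. Sesn3, a stress-induced regulator of mTOR, rose by 0.41 ± 0.07. Of 28 genes of insulin, PI3 kinase and mTOR control, 2 rose, 1 fell and 25 did not pass. Of 22 adrenergic, natriuretic and blood pressure genes, 3 fell and 19 did not pass. Rgs2 is read by 2 probe sets, which differed by -0.50 and -0.08. Without both WT SC arrays Akt1 passed (adjusted p = 0.0459), while Agtr1a (adjusted p = 0.0536), Sesn3 (adjusted p = 0.103) and Rgs2 (adjusted p = 0.286) did not. In antioxidant defence, Nqo1, a quinone reductase, was 0.29, 0.30, 0.44 and 0.20 in Clock HFD hearts, against -0.32, 0.01, -0.15 and -0.51 in WT SC hearts, a difference of 0.55 ± 0.09 (adjusted p = 0.00335). Sod3, the extracellular superoxide dismutase, rose by 0.50 ± 0.09 and Gstp1, a glutathione transferase, fell by 0.48 ± 0.09. Of 30 antioxidant and NRF2-responsive genes, 3 rose, 2 fell and 25 did not pass. The autophagy and lysosome genes Ulk2, Lamp1 and Becn1 rose by 0.44 ± 0.08, 0.31 ± 0.07 and 0.27 ± 0.06, the 3 called of 28. Among all genes, 2.54% were higher and 1.47% lower. Nqo1, Sod3 and Gstp1 passed without both WT SC arrays, and the 3 autophagy genes did not.

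Of 32 genes of inflammatory cytokines and adhesion, 2 fell and none rose, against 1.47% lower among all genes: Lcn2, a lipocalin of neutrophils and stressed tissue, by 0.69 ± 0.12 (adjusted p = 0.00402), and Vcam1, an adhesion molecule of endothelium, by 0.39 ± 0.10 (adjusted p = 0.0463). Without both WT SC arrays, Lcn2 passed (adjusted p = 0.0417) and Vcam1 did not (adjusted p = 0.307). None of the 26 interferon-inducible genes on the list was called, with a median of -0.20, which was -0.07 without both WT SC arrays. Other genes named for interferon, not on the list and picked after their values were seen, were called. Ifitm3 fell by 0.45 ± 0.11 (adjusted p = 0.0237) and Ifi30 by 0.46 ± 0.11 (adjusted p = 0.029), while Ifitm6 rose by 0.20 ± 0.05 (adjusted p = 0.0342). None of them passed without both WT SC arrays. Iigp1, an interferon-inducible GTPase, was -0.91, -0.87, -0.74 and -0.27 in Clock HFD hearts, against 0.32, 2.94, 0.12 and 0.17 in WT SC hearts, a difference of -1.59 ± 0.45 (adjusted p = 0.063). The highest value was that of WT SC replicate 2, and without this array the gene passed (adjusted p = 0.0273). Mr1, which presents vitamin metabolites to T cells, was -0.40, -0.42, -0.56 and -0.51 in Clock HFD hearts, against 0.05, 0.34, 0.13 and 0.35 in WT SC hearts, a difference of -0.69 ± 0.07 (adjusted p = 9.37e-05). Of 10 T or NK cell markers, Cd3e and Cd4 fell by 0.32 ± 0.07 and 0.31 ± 0.07, and neither passed without both WT SC arrays. None of 14 macrophage, 14 endothelial or 8 smooth muscle markers was called, and of 12 cardiomyocyte markers only Ryr2 was. None of 26 immediate early genes or 23 heat shock chaperones was called either, although Hspa1a and Hspa1b had large differences of 1.73 and 1.39 (adjusted p = 0.159 and 0.193).

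**Figure D4:**
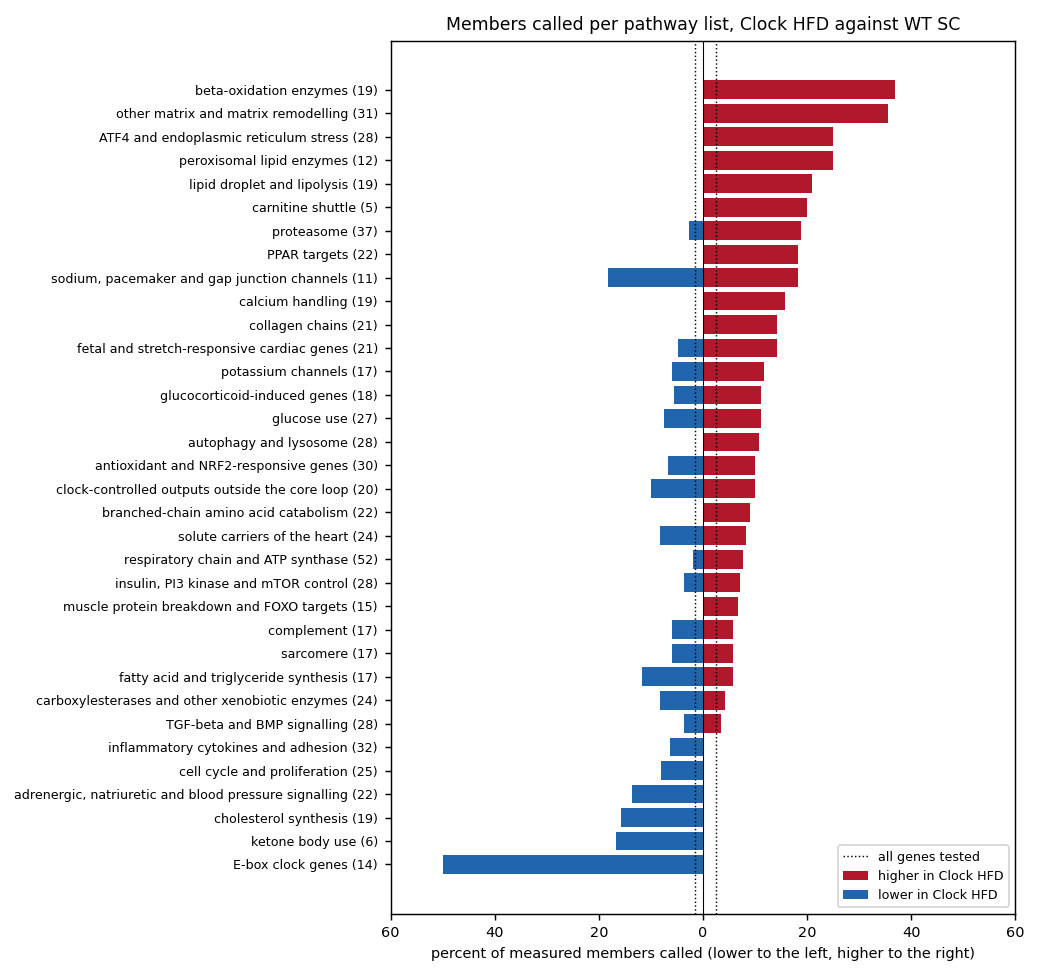
Percent of the measured members of each pathway list called higher (red, right) and lower (blue, left) in Clock HFD against WT SC hearts, with the number of members in brackets and the share of all genes as dotted lines (2.54% higher, 1.47% lower). Lists with no called member are not drawn. E-box clock genes had 7 of 14 lower, and beta-oxidation and matrix genes have the highest shares of members that rose. The lists were chosen with earlier results of these data known, so the shares are descriptions and no test.

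Whether the combination had changed a gene beyond each challenge alone was asked by setting Clock HFD hearts against Clock SC, WT HFD and WT SC hearts in turn and keeping the largest of the 3 p-values. Mthfd2 was the only gene that passed (0.00451% of all genes, adjusted p = 0.0289). It was 0.87, 0.84, 0.98 and 0.88 in Clock HFD hearts, 0.47, 0.18, -0.18 and 0.17 in Clock SC hearts, -0.02, 0.02, -0.12 and -0.25 in WT HFD hearts, and -0.26, -0.25, -0.37 and -0.22 in WT SC hearts. All 4 Clock HFD hearts lay above all 12 other hearts. Clock HFD exceeded Clock SC by 0.73 ± 0.10 (adjusted p = 0.00666) and WT HFD by 0.98 ± 0.10 (adjusted p = 5.47e-05). That call did not hold in several settings: the count of such genes was 0 after repeated quantile normalization, with a trend and robust variance, with a replicate block, over single probe sets, and without any 1 of the 4 Clock HFD arrays. The genes next in order were Mr1 (adjusted p = 0.117), Ddit4, Nars and Egf (0.378 each), Jam2 (0.405), Ppfibp1 (0.554) and Apmap (0.681), none of which passed.

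A test of the interaction, whether the diet difference in Clock mice departs from that in wild-type mice, called 0 of 22180 genes by limma, with a smallest adjusted p of 0.15. At an unadjusted p under 0.05 there were 1122 genes (5.06%), and 92 of the 891 called genes were among them. Mthfd2 had an interaction of 0.55 ± 0.14 and Ces1d one of -0.92 ± 0.26, each with an adjusted p of 0.76. The 5 called genes with the smallest interaction p were Dpy19l3 (0.40 ± 0.08, adjusted p = 0.68), Zfp623 (-0.31 ± 0.07, adjusted p = 0.71), Ablim3 (0.38 ± 0.09), Fcho2 (-0.30 ± 0.08) and 9530091C08Rik (-0.47 ± 0.12), the last 3 with an adjusted p of 0.76.

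Beside the 891 calls of the combination, Clock SC against WT SC gave 109 (0.491%) and WT HFD against WT SC gave 78 (0.352%), while Clock HFD against Clock SC gave 20 (0.0902%) and Clock HFD against WT HFD gave 422 (1.9%). These comparisons share arrays, so their differences are given side by side and no likeness between them is computed. Plac9a differed from WT SC by 0.92 ± 0.08 in Clock HFD hearts, by 1.15 ± 0.08 in Clock SC hearts and by -0.09 ± 0.08 in WT HFD hearts. Ano4 differed by -1.17 ± 0.06 in Clock HFD hearts, by -1.19 ± 0.06 in Clock SC hearts and by 0.06 ± 0.06 in WT HFD hearts. For Ano4 and Plac9a the values of Clock HFD and Clock SC hearts thus lay side by side, with diet differences in Clock mice of 0.02 ± 0.06 (adjusted p = 0.969) and -0.23 ± 0.08 (adjusted p = 0.39). Slc17a7 differed by 1.33 ± 0.11 in Clock HFD hearts, by 0.98 ± 0.11 in Clock SC hearts and by 0.19 ± 0.11 in WT HFD hearts. Bdh1 differed by -0.83 ± 0.12, -0.98 ± 0.12 and -0.12 ± 0.12 in the same order.

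Other genes had similar values in both HFD groups. Ephx2 differed from WT SC by 0.44 ± 0.06 in Clock HFD hearts, by -0.04 ± 0.06 in Clock SC hearts and by 0.53 ± 0.06 in WT HFD hearts, and its genotype difference on HFD was -0.09 ± 0.06 (adjusted p = 0.578). Acadvl gave 0.33 ± 0.06 in Clock HFD hearts, 0.00 ± 0.06 in Clock SC hearts and 0.33 ± 0.06 in WT HFD hearts. Scn4b gave 0.36 ± 0.08, -0.20 ± 0.08 and 0.52 ± 0.08, Tgfb1 gave -0.38 ± 0.05, -0.02 ± 0.05 and -0.30 ± 0.05, and Scgb1c1 gave -0.99 ± 0.19, -0.17 ± 0.19 and -1.04 ± 0.19 in that order. The median over the 19 beta-oxidation enzymes was 0.16 in Clock HFD hearts, -0.02 in Clock SC hearts and 0.16 in WT HFD hearts. Over the 31 matrix genes it was 0.18, 0.20 and 0.00, and over the 14 E-box clock genes -0.53, -0.55 and 0.28.

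A further group of genes had part of its difference in each single challenge. C7 differed from WT SC by -1.40 ± 0.18 in Clock HFD hearts, by -0.32 ± 0.18 in Clock SC hearts and by -0.90 ± 0.18 in WT HFD hearts. Epha4 gave -0.88 ± 0.10, -0.53 ± 0.10 and -0.39 ± 0.10, Kcnv2 gave 0.75 ± 0.11, 0.38 ± 0.11 and 0.48 ± 0.11, and Postn gave 0.62 ± 0.10, 0.28 ± 0.10 and 0.33 ± 0.10 in the same order. Of these 4 genes in the single challenges, C7 on HFD (adjusted p = 0.038) and Epha4 in Clock SC hearts (adjusted p = 0.0176) passed. Their interactions were -0.18 ± 0.25 for C7, 0.04 ± 0.14 for Epha4, -0.11 ± 0.15 for Kcnv2 and 0.01 ± 0.14 for Postn, none of which passed, and this does not show that the parts add up. Ces1d and Dbp went in opposite directions in the single challenges: Ces1d gave -1.73 ± 0.19 in Clock HFD hearts, -1.63 ± 0.19 in Clock SC hearts and 0.81 ± 0.19 in WT HFD hearts, and Dbp gave -2.01 ± 0.27, -2.05 ± 0.27 and 0.71 ± 0.27. The rises on HFD in wild-type hearts did not pass (adjusted p = 0.0724 for Ces1d and 0.323 for Dbp).

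**Figure D5:**
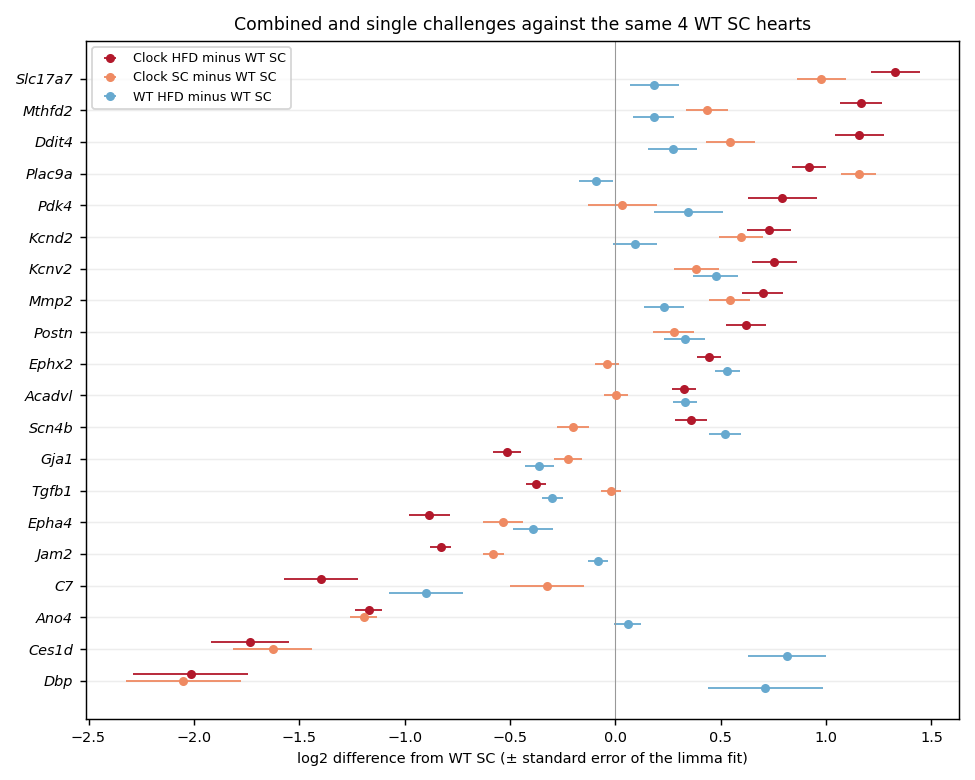
Log2 difference from the same 4 WT SC hearts, with standard error, for Clock HFD (red), Clock SC (orange) and WT HFD hearts (blue) in 20 named genes. Ano4 and Plac9a have like values in both Clock groups, Ephx2 and Acadvl in both HFD groups, and Mthfd2 has 1.16 in Clock HFD hearts beside 0.43 in Clock SC and 0.18 in WT HFD hearts.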

How the data were processed

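The authors deposited 1 table of log2 values for 34351 probe sets on 16 Affymetrix arrays, centred on the median of the 16 arrays for each probe set (medians within 5e-07 of 0). Base 2 and positive for higher expression were assumed, and software, background correction and normalization are not stated in the labels. Probe sets with exactly 1 gene symbol (23521) were averaged per gene; 1814 with several and 9016 with none listed were left out. Matching by gene ID to RefSeq (GRCm38.p6) changed 0 symbols and left 193 probe sets unmatched.

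Genes were tested with limma 3.58.1 in R 4.3.3 (lmFit, eBayes, two-sided, 12 residual and 4.16 prior degrees of freedom), with 1 mean per group over all 16 arrays, no filter and Benjamini-Hochberg adjustment over 22180 genes at 0.05. Precision is limited by 4 arrays per group. The code was tested on simulated data.

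Members and lists (39 pathway, 20 cell type; 1009 of 1106 symbols matched) were chosen with earlier results of these data known. Named genes were the clock genes, the 12 largest non-overlapping rises and falls (predicted genes, with names that start with Gm and digits or LOC or end in Rik, left out), up to 4 called members per list, the 8 smallest p-values for a difference from each other group and the 5 smallest interaction p-values. Other list members named, with Asns among them, were picked after their values were seen. The labels name no pairing of mice by replicate number (see correlations of Clock HFD with WT SC arrays in the closing section).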

Additional observations from a re-analysis of the deposited data

Results flagged for a closer look

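With 4 arrays a group, a single value was singled out where its gap to the nearest of the others exceeded Dixon's critical share of the group's range. Among 300 groups of 4 values of named genes, 12 met this, which is not above the about 5% of groups that chance gives. The values are therefore listed as descriptions only. On WT SC replicate 2, Iigp1 (2.94) and Psme1 (0.746), both interferon-inducible, were high. On WT SC replicate 4, Apmap, an adipocyte plasma membrane protein gene (-0.437), and Rora, a nuclear receptor of the clock (-0.0535), were low. On WT SC replicate 3, Cd4 (-0.0307) and Etfdh (-0.207) were low, and on WT SC replicate 1 the thymus marker Rag2 was high (0.307).

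Among Clock HFD hearts, replicate 1 was low for Postn (0.0706) and Rgs2 (-0.242), and replicate 2 was low for Rag2 (-0.143). Replicate 4 was high for Acaa2 (0.233) and low for Slc16a7, a monocarboxylate transporter (-0.383).

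Of 10830 probe sets with no gene symbol listed or with several, which enter no gene value above, 183 passed in Clock HFD against WT SC when tested singly (1.69%), 99 higher and 84 lower.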

How the results depend on the processing

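The signs of the named genes held in every setting in which they were recomputed by gene. Over single probe sets, Tef differed in sign (-0.31 and 0.17). The number of called genes was 222 (92 higher, 130 lower) without WT SC replicates 2 and 4 together, 673 in a fit of only the 8 arrays compared, 800 with a replicate block, 817 with a trend and robust variance, 892 with the probe set of highest mean (a rule with little meaning for centred values), 898 after repeated quantile normalization, 909 with array weights and 1015 over all probe sets singly. Leaving out 1 array at a time gave 532 to 1054 called (306 to 692 higher, 212 to 362 lower), with 564 without Clock HFD replicate 2 and 564 without replicate 4. Of the 891, 390 passed whichever of the 8 arrays was left out, and so did 78 of the 122 named genes called. The count of genes set apart from all other groups was 0 without WT SC replicates 2 and 4, over all probe sets singly, with trend and robust variance, after repeated quantile normalization and with a replicate block, and 0 to 1 with 1 array left out. The interaction count was 0 in all settings. By the exact permutation test over 70 splits of the 8 arrays, whose smallest two-sided p is 0.0286, 5 named calls were lost and 9 gained. Its p-values are unadjusted, unlike those of the calls. A gene whose groups do not overlap gets the smallest p, and many genes were named for not overlapping, so calls kept here are no separate check. The cause of the changes between settings was not tested. Deviations from the group mean on same-numbered Clock HFD and WT SC arrays had correlations of -0.08, -0.01, -0.02 and -0.02. The Clock SC and WT HFD arrays were not compared in this way, and the labels name no pairing for the replicate block. No filter on dim genes could be applied, as centred values hold no signal level, so this alternative was not run.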

Other observations

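Small nucleolar RNAs, a group picked after their values were seen, showed calls in 1 direction. Of 81 measured, 14 were higher in Clock HFD than in WT SC hearts (17.3%) and 0 lower, with a median difference of 0.20. Among all genes, 2.54% were higher and 1.47% lower. These RNAs guide the chemical modification of ribosomal RNA. Their mean was 0.09, 0.09, 0.09 and 0.12 on the 4 Clock HFD arrays, against -0.00, -0.12, -0.04 and -0.20 on the 4 WT SC arrays, lowest on the 2 WT SC arrays that stand apart. The count was 8 without WT SC replicate 2, 8 without replicate 4 and 2 without both. Without both, their median was 0.09, and 0.415% of all genes were higher. The part of RNA quality in these differences was not tested.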
